A study of Sus scrofa with 16 samples.

Results

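The genes described are the AP-1 and EGR immediate early factors of the pig heart. All probe sets were taken whose platform annotation gives FOS, FOSB, FOSL1, FOSL2, JUN, JUNB, JUND, EGR1, ATF3 or IER3 as the only gene symbol. Of these 10 symbols, 7 had such a probe set, with 11 probe sets in all, out of 6765 gene symbols and 23935 probe sets tested. FOS, FOSL2, JUN, ATF3 and IER3 had 1 probe set each, and FOSL1 and EGR1 had 3 each. A further 4 probe sets carried FOSL2 together with FRZB and are described apart, and FOSB, JUNB and JUND were not analysed here.

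The study compared left ventricles of exercise-trained and sedentary pigs of a Yorkshire and Landrace cross, under the heading of physiological hypertrophy, the enlargement of the heart with training. The exercised group (8 animals) and the sedentary group (8 animals) each held 4 females and 4 castrated males. All 16 animals were 2 to 3 months old, and tissue was taken 4 to 5 weeks after the protocol began. The exercise itself and the time between the last bout and sampling are not given in the sources used here. RNA from frozen, crushed left ventricular muscle was measured with 1 Affymetrix porcine array per animal, and values are log2 signals per probe set, so a difference of 1 is a doubling.

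FOS, its relatives FOSL1 and FOSL2, JUN and ATF3 are leucine-zipper proteins that pair with each other to form AP-1 and related dimers on DNA. EGR1 is a zinc-finger transcription factor that is switched on by many of the same signals through serum response factor. Their transcripts are immediate early: they appear within minutes of a stimulus without new protein synthesis and decay quickly. In heart muscle they are known to respond to stretch, catecholamines and ischaemia. IER3 is a short-lived stress protein that is no DNA-binding factor and modulates cell survival and kinase signals.

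No array stood far apart: the correlation of an array with the average of the remaining ones was 0.988 at the lowest and 0.994 at the highest. They fell into a set of 11 arrays with high signals for the bacterial poly-A controls, which are spiked in before labelling, and a set of 5 with low signals. The ranges were 7.22 to 8.20 log2 and 5.81 to 6.31 log2. On the correlation with the remaining arrays, the low set lay at 0.988 to 0.990 and the high set at 0.990 to 0.994. The labels name no such sets. The low set held exercised 7 and 8 and sedentary 6, 7 and 8, with 0 exercised females, and the gap between 3' and 5' actin probe sets averaged 1.38 log2 there against 2.19 in the high set. Of 11 cardiomyocyte marker genes, 0 passed the training test (limma; 1 at an unadjusted p under 0.05), and their mean level was 13.6 to 13.9 log2 in exercised and 13.5 to 13.8 in sedentary animals.

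FOS, EGR1 and ATF3 were lower on average in exercised hearts, by 0.64 to 1.63 log2 over their 5 probe sets. They spread widely between animals, and none passed. FOSL2 and JUN were also lower on average, and IER3 was higher, without passing. The probe set of FOSL1 with identifier Ssc.3391.3.S1_at was the 1 member probe set that passed, and it rose. The test was limma's moderated test of the training difference averaged over the sexes, with Benjamini-Hochberg adjustment over all 23935 probe sets and a threshold of 0.05. Over all probe sets 13.4% passed and 6.48% passed as higher, so a single member of 11 cannot be told apart from the background: its share lies below the first percentage and above the other. At an unadjusted p under 0.05 there were 4 of 11 members, against 27% of all probe sets. The median difference was -0.48 over the 11 member probe sets, 7 of them negative, and 0.00 over all probe sets. In tissue RNA, fewer cells that express a gene and less RNA per cell cannot be told apart.

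**Figure D1:**
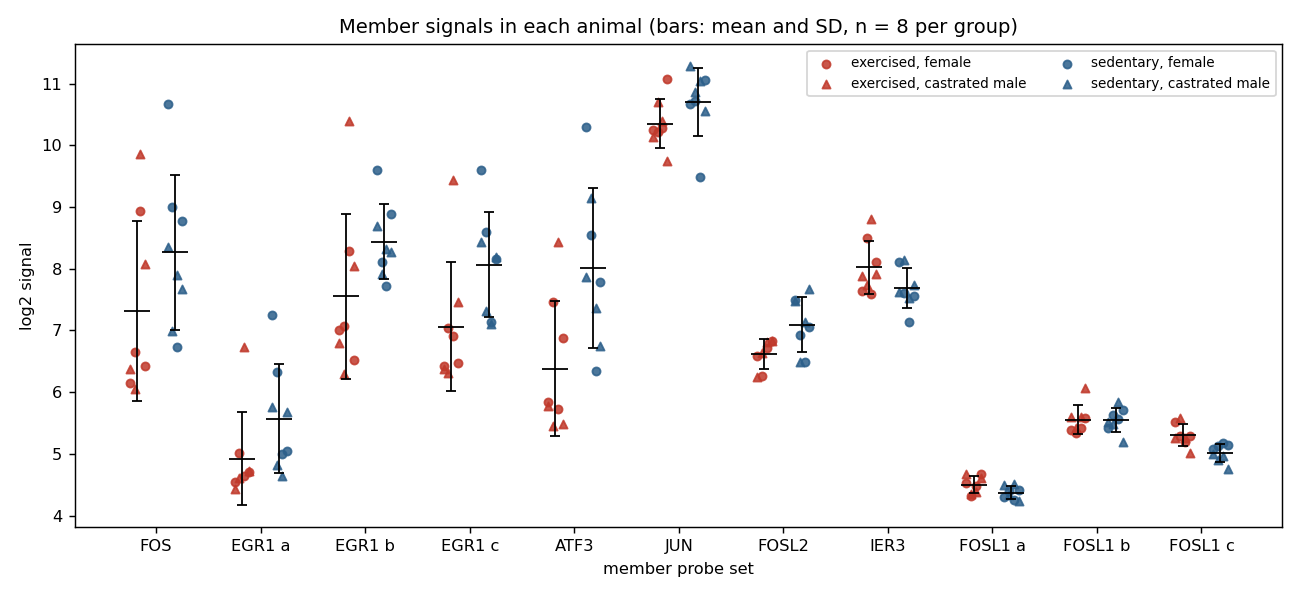
Log2 signal (vertical axis) of the 11 member probe sets (horizontal axis) in each animal, exercised in red and sedentary in blue, circles for females and triangles for castrated males, with the mean and SD of 8 animals per group. FOS and ATF3 span several log2 units within each group, while EGR1 b runs from 7.72 to 9.60 in sedentary animals. Every member's groups overlap. EGR1 a, b and c are Ssc.16460.1.S1_at, Ssc.19629.1.A1_at and Ssc.19629.2.S1_s_at, and FOSL1 a, b and c are Ssc.3391.1.S1_at, Ssc.3391.2.S1_at and Ssc.3391.3.S1_at.

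FOS, the partner in AP-1 that cannot pair with itself, was measured by Ssc.1555.1.A1_at. Its signal ran from 6.05 in exercised 5 through a median of 6.54 to 9.86 in exercised 7. In sedentary animals it ran from 6.73 in sedentary 4 through a median of 8.13 to 10.68 in sedentary 1. The groups overlapped: 5 exercised animals lay below every sedentary animal, and exercised 4, 7 and 8 lay at 8.93, 9.86 and 8.08, among the sedentary values. The means were 7.32 ± 1.45 and 8.26 ± 1.26 (SD, n = 8 each), a difference of -0.95 log2 or 1.93-fold (SE 0.609, 95% interval -2.24 to 0.35; limma adjusted p = 0.352). An exact permutation test over the 12870 assignments of 16 animals to groups of 8 gave p = 0.181 (two-sided). The residual SD within groups, 1.38 log2, was larger than that of 99.9% of all probe sets. In the 11 arrays with high poly-A controls the plain difference of means was -1.59. In the 5 with low controls, 2 exercised and 3 sedentary animals, it was 0.85, the opposite direction. There exercised 7 and 8 lay at 9.86 and 8.08 and the sedentary animals from 7.68 to 8.78, so that direction depends on exercised 7.

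EGR1 had 3 probe sets, and each was lower on average in exercised animals. On the brightest, Ssc.19629.1.A1_at, exercised animals ran from 6.30 in exercised 5 through a median of 7.05 to 10.39 in exercised 7. Sedentary animals ran from 7.72 in sedentary 4 through a median of 8.30 to 9.60 in sedentary 1. Exercised 7 lay above every sedentary animal, while 5 exercised animals lay below all of them. The means were 7.55 ± 1.34 and 8.44 ± 0.61 (SD, n = 8 each), a difference of -0.89 (SE 0.479, 95% interval -1.91 to 0.13, limma adjusted p = 0.255). For Ssc.19629.2.S1_s_at the exercised values were 6.31, 6.70 and 9.44 (lowest, median, highest) and the sedentary values 7.11, 8.18 and 9.60. Here 6 exercised animals lay below every sedentary animal, and exercised 7 again stood highest of its group. The means were 7.06 ± 1.04 and 8.07 ± 0.86 (SD, n = 8 each), a difference of -1.01 or a 2.02-fold ratio (SE 0.425, limma adjusted p = 0.136; exact permutation p = 0.0566). The dim probe set Ssc.16460.1.S1_at differed by -0.64 (limma adjusted p = 0.283). The mean of the 3 probe sets differed by -0.85 (limma adjusted p = 0.222). As for FOS, the plain differences in the high and low poly-A sets had opposite signs, at -1.41 and 0.72 for the brightest probe set. In the low set exercised 7 stood at 10.39, while exercised 8 at 8.04 lay below the 3 sedentary animals (8.26 to 8.89).

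ATF3, a stress-induced factor of the ATF family that can repress transcription, showed the largest difference among the members. On Ssc.16466.1.A1_at the exercised animals ran from 5.45 in exercised 5 through a median of 5.80 to 8.43 in exercised 7. The sedentary animals ran from 6.35 in sedentary 4 through a median of 7.83 to 10.29 in sedentary 1. Of the exercised animals 5 lay below every sedentary animal, and 3 sedentary animals lay above every exercised one. The means of 6.38 ± 1.10 and 8.01 ± 1.29 (SD, n = 8 each) differed by -1.63, a 3.10-fold ratio (SE 0.563, 95% interval -2.83 to -0.44). This missed the threshold over all probe sets (limma adjusted p = 0.0679; exact permutation p = 0.0182 for this value alone). The plain difference was -2.25 in the high poly-A set and -0.34 in the low set.

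JUN, the AP-1 partner that can also pair with itself, varied less between animals. On Ssc.9075.1.A1_at the exercised animals ran from 9.75 through a median of 10.26 to 11.08, and the sedentary animals from 9.48 through 10.79 to 11.29. The lowest of all 16 animals was sedentary 4 and the highest sedentary 3, so the sedentary range enclosed the exercised one. The means were 10.35 ± 0.40 and 10.71 ± 0.55 (SD, n = 8 each), a difference of -0.36 (SE 0.213, 95% interval -0.81 to 0.10, limma adjusted p = 0.308), with 7 of 8 exercised animals below the sedentary mean. It was -0.16 in the high poly-A set and -0.81 in the low set.

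FOSL2, or Fra-2, an AP-1 partner without the strong activation domain of FOS, was measured alone by Ssc.5547.1.A1_at. Exercised animals lay between 6.24 and 6.83, with a median of 6.68, and sedentary animals between 6.49 and 7.68, with a median of 7.10. All 8 exercised animals lay below the sedentary mean and 6 sedentary animals lay above every exercised one, although sedentary 4 and 5 fell inside the exercised range. The means were 6.62 ± 0.24 and 7.09 ± 0.45 (SD, n = 8 each), a difference of -0.48 (SE 0.172, 95% interval -0.84 to -0.11), which did not pass (limma adjusted p = 0.0786; exact permutation p = 0.0211). It was -0.43 in the high and -0.47 in the low poly-A set.

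The 4 probe sets annotated to FOSL2 and FRZB together cannot be assigned to either gene. FRZB codes for a secreted antagonist of Wnt signals. On Ssc.15224.1.S1_at the exercised animals lay between 5.77 and 6.50 and the sedentary animals between 6.57 and 7.57, without overlap, which held for 3.12% of all probe sets. This signal fell by 0.60 on the log2 scale (SE 0.130, limma adjusted p = 0.00671). On Ssc.15224.2.S1_at the signal fell by 0.67 (SE 0.210, limma adjusted p = 0.0454), with 6.74 ± 0.42 in exercised and 7.41 ± 0.49 in sedentary animals (SD, n = 8 each). The other two, Ssc.15224.3.A1_at and Ssc.8149.1.A1_at, differed by -0.20 and 0.11 and did not pass (limma adjusted p = 0.19 and 0.902).

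FOSL1, or Fra-1, another AP-1 partner of low level in resting tissue, was dim on all 3 probe sets. Its mean signals of 4.43 to 5.55 log2 were set against 64 reporter control probe sets on the same arrays, whose median was 3.75 and 90th percentile 4.99. Ssc.3391.3.S1_at rose by 0.28 (SE 0.0761, 95% interval 0.12 to 0.44, limma adjusted p = 0.0227; exact permutation p = 0.00311). Its exercised values were 5.01, 5.27 and 5.59 (lowest, median, highest) and its sedentary values 4.76, 5.03 and 5.18. Of the exercised animals 7 lay above every sedentary animal, and exercised 8 was the exception. The other FOSL1 probe sets did not pass: Ssc.3391.1.S1_at differed by 0.13 and the brightest, Ssc.3391.2.S1_at, by 0.01 (95% interval -0.21 to 0.22). The mean of the 3 differed by 0.14 (limma adjusted p = 0.172), so the rise stands on 1 dim probe set. Without exercised 1 it was 0.25 and just missed the threshold (limma adjusted p = 0.0501).

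IER3 was higher on average in exercised animals, the other way from FOS, EGR1 and ATF3, but did not pass. On Ssc.5182.1.A1_at the exercised animals ran from 7.60 through a median of 7.90 to 8.80 in exercised 7, and the sedentary animals from 7.14 in sedentary 4 through 7.62 to 8.14. Of the exercised animals 2 lay above every sedentary animal. The means were 8.02 ± 0.43 and 7.68 ± 0.32 (SD, n = 8 each). The difference was 0.34 (SE 0.181, 95% interval -0.05 to 0.73) and did not pass (limma adjusted p = 0.249). It was 0.18 in the high and 0.75 in the low poly-A set. In the fits with 1 animal left out it ran from 0.22 to 0.42, and in the other alternative fits from 0.13 to 0.35.

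**Figure D2:**
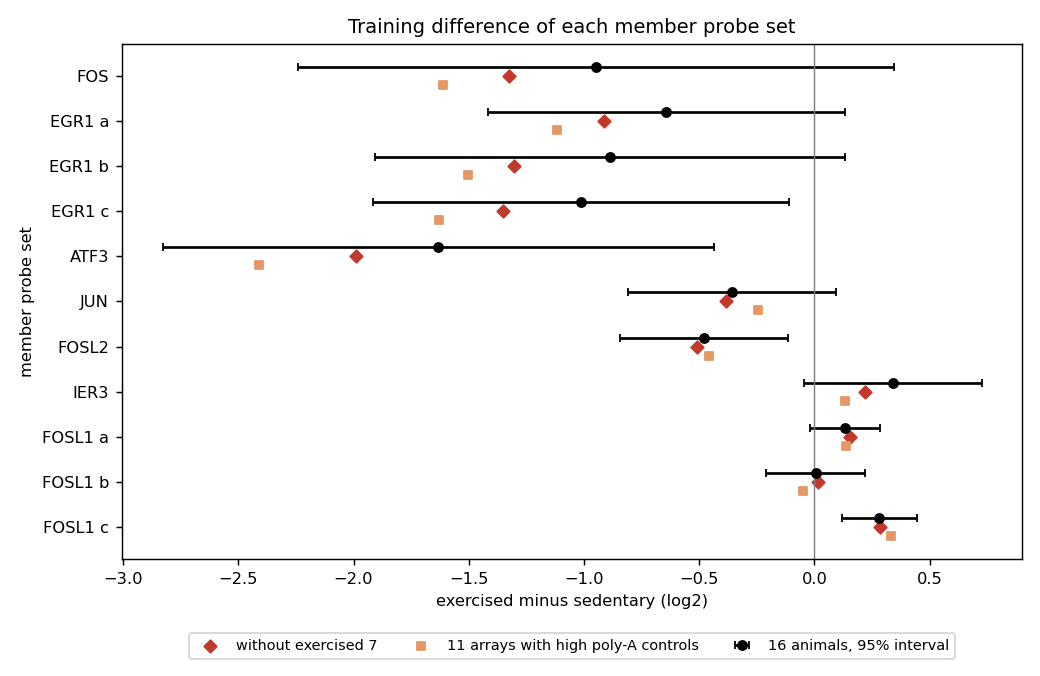
Exercised minus sedentary difference in log2 signal (horizontal axis) for each member probe set (vertical axis), with black points and 95% intervals from limma over 16 animals, red diamonds without exercised 7 and orange squares over the 11 arrays with high poly-A controls. FOS moved from -0.95 to -1.33 and -1.61, and ATF3 from -1.63 to -1.99 and -2.41, while FOSL2 stayed between -0.51 and -0.46.

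Leaving out some single animals changed which members passed. Over 16 fits with 1 animal left out, FOSL1 on Ssc.3391.3.S1_at passed in 15. ATF3 and FOSL2 passed in 2 each, the brighter EGR1 probe sets in 1 each, and the other members in 0. The fits not named below gave FOSL1 alone. Leaving out the highest exercised or lowest sedentary animal widens a negative difference by construction. Exercised 7 was the highest exercised animal for FOS, for ATF3, for IER3 and on all 3 EGR1 probe sets. Without it, 4 of 11 member probe sets passed (background 11.7%): ATF3 at -1.99 (limma adjusted p = 0.0197), EGR1 at -1.30 and -1.35 on the brighter probe sets (limma adjusted p = 0.02 and 0.0152), and FOSL1. FOS was -1.33 without exercised 7 and did not pass (limma adjusted p = 0.139). Sedentary 4 was the lowest sedentary animal for FOS, ATF3, JUN, FOSL2, IER3 and the brightest EGR1 probe set. Without it 3 passed (background 11.6%), namely ATF3 at -1.95, FOSL2 at -0.56 and FOSL1. JUN was -0.52 without sedentary 4 and did not pass (limma adjusted p = 0.0564). Without sedentary 5, FOSL2 at -0.60 and FOSL1 passed, 2 members in all (background 12.3%). Without exercised 1 none did by limma (background 10.5%), with FOSL1 the member lost. Over the 11 arrays with high poly-A controls 4 passed, ATF3, the brighter EGR1 probe sets and FOSL1 (background 10.3%). Without both exercised 7 and sedentary 1, an alternative chosen after seeing the data, 3 passed, ATF3 and the brighter EGR1 probe sets (background 9.91%), and FOSL1 at 0.28 did not (limma adjusted p = 0.0645). When probe sets up to the 40th percentile of level were dropped, the 3 FOSL1 probe sets and the dim EGR1 probe set among them, 0 members passed by limma (background 4.39%).

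**Figure D3:**
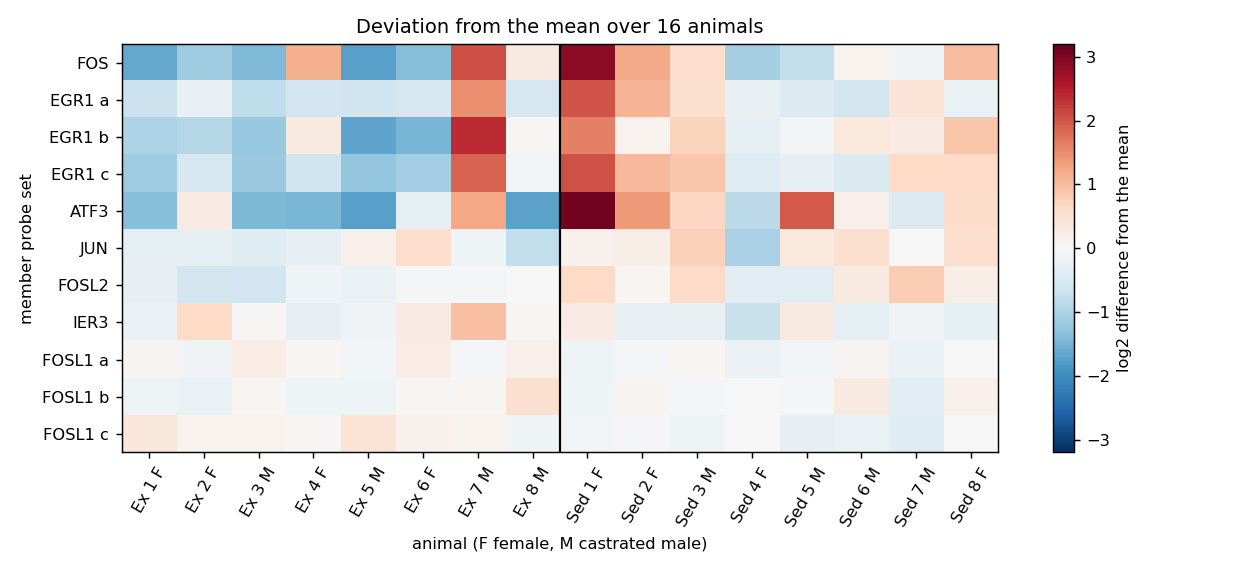
Deviation of each member probe set (rows) from its mean over 16 animals, in log2 units on the colour scale, with exercised animals (Ex) left and sedentary animals (Sed) right of the black line. Exercised 7 and sedentary 1 are above the mean for FOS, EGR1 and ATF3, and exercised 5 is below it for all of these.

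The FOS and EGR1 signals followed each other from animal to animal, while no such relation was seen between JUN and FOS. Over 16 animals the brightest probe sets of FOS and EGR1 had Pearson's r = 0.91 and Spearman's rho = 0.91 (permutation p = 1e-05 for each, the smallest that 100000 resamples can give; Benjamini-Hochberg adjusted 0.00021 over 21 pairs). Without exercised 7 and sedentary 1, the animals farthest from the FOS median, r was 0.87. It was 0.95 within exercised animals and 0.89 within sedentary animals (n = 8 each, exact permutation p = 0.000496 and 0.00429, adjusted 0.0208 and 0.0601 over 42 values), with rho = 0.90 and 0.76 (exact permutation p = 0.00456 and 0.0368, adjusted 0.192 and 0.486). Within sedentary animals r was 0.56 without sedentary 1 and 4. Over the 11 arrays with high poly-A controls r was 0.92, and no value was computed for the 5 arrays of the low set. FOS and ATF3 had r = 0.62 and rho = 0.58 (permutation p = 0.0105 and 0.0206, adjusted 0.0734 and 0.0952). Without exercised 7 and sedentary 1 their r was 0.35, so its size depends in part on these 2 animals. Leaving out the animals farthest in FOS also narrows its range, which can by itself lower r. FOS and JUN had r = 0.19 and rho = 0.20 (permutation p = 0.486 and 0.45, adjusted 0.787 and 0.674), and r was 0.25 without the same 2 animals.

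**Figure D4:**
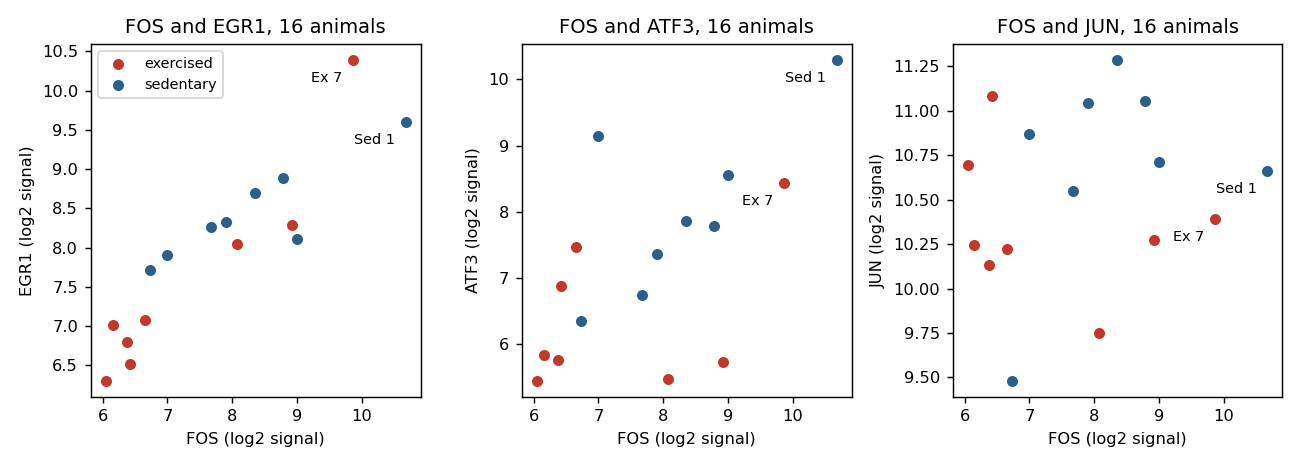
FOS log2 signal (horizontal axes) against the log2 signal of EGR1, ATF3 and JUN (vertical axes) on their brightest probe sets in 16 animals, exercised in red and sedentary in blue. EGR1 lies close to a line with FOS (r = 0.91), ATF3 less so (r = 0.62), and JUN shows no clear order (r = 0.19).

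By likeness of pattern over the 16 animals, EGR1 was first for FOS among 6765 gene symbols. Next came CXCL2, a neutrophil chemokine (r = 0.84), MSX1, a homeobox factor (r = 0.81), TJP1, a tight junction protein (r = 0.77), and BTG2, an antiproliferative immediate early gene (r = 0.76). For JUN the 5 most alike were SUPV3L1, a mitochondrial RNA helicase (r = 0.81), USP28, a deubiquitinase (r = 0.78), ERAL1, a mitochondrial ribosome assembly factor (r = 0.76), SLC2A3, a glucose transporter (r = 0.75), and CIRBP, a cold-inducible RNA-binding protein (r = 0.75). The lists for FOS and JUN shared no gene. These were picked as the highest of all symbols, so no test is given.

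By sex, the FOS difference was -1.76 in females (7.04 ± 1.28 against 8.80 ± 1.61) and -0.14 in castrated males (7.59 ± 1.76 against 7.73 ± 0.56; SD, n = 4 each). Exercised 7, the highest exercised animal for FOS, is a castrated male. The low poly-A set held castrated males exercised 7 and 8 and sedentary 6 and 7, but only 1 female, sedentary 8. Sex and array set therefore cannot be fully told apart. On high poly-A arrays, castrated males exercised 3 and 5 had FOS at 6.38 and 6.05, and sedentary 3 and 5 at 8.35 and 7.00. EGR1 on its brightest probe set, Ssc.19629.1.A1_at, differed by -1.35 in females and -0.42 in males, and on Ssc.19629.2.S1_s_at by -1.66 and -0.36. ATF3 differed by -1.77 in females and -1.50 in males. JUN showed the reverse order, with -0.02 in females and -0.69 in males. Of the 11 member probe sets 0 passed in either sex by limma, against 3.72% of all probe sets in females and 3.77% in males. At an unadjusted p under 0.05 there were 3 members in each sex, against 18.2% and 17.3% of all probe sets. The difference between the sexes in the training effect was -1.61 for FOS, with a 95% interval from -4.20 to 0.98, -0.94 for the brightest EGR1 probe set, from -2.97 to 1.10, and 0.67 for JUN, from -0.23 to 1.58. It passed for 0 members and for 0% of all probe sets by limma. At an unadjusted p under 0.05 it held for 0 members and 2.59% of all probe sets. Males and females, averaged over training, differed in 0 members at either threshold, against 0.0919% and 9.26% of all probe sets.

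Neighbours of the AP-1 and EGR system were read from lists, taking for each gene its probe set with the highest mean signal, where 5.11% of all 6765 genes passed as higher and 4.91% as lower, with a median difference of 0.01. Of 10 measured AP-1 partners and related leucine-zipper factors, 0 rose, 3 fell and 7 did not pass (median -0.14). CEBPA fell by 0.47 (limma adjusted p = 0.000922), CREM, a cyclic AMP-responsive factor, by 0.58 (limma adjusted p = 0.0211) and CEBPD, an acute-phase factor, by 0.64 (limma adjusted p = 0.0453). Of 2 measured EGR relatives, EGR4 and WT1, 0 passed by limma, with 1 at an unadjusted p under 0.05.

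Of 13 measured kinases and factors upstream, 2 rose and 1 fell (median 0.03). MAP2K6, which activates p38, rose by 0.51 (limma adjusted p = 0.00644), MAPK9, a JUN kinase, by 0.28 (limma adjusted p = 0.0351), and RPS6KA3, a kinase downstream of ERK, fell by 0.37 (limma adjusted p = 0.0348). Of 31 other immediate early genes, 0 rose, 6 fell and 25 did not pass (median -0.26). The 4 with the smallest p were KLF4, NR4A3, HES1 and KLF2. NR4A3, an orphan nuclear receptor, fell by 2.01 (limma adjusted p = 0.00162) and HES1, a Notch target, by 0.59 (limma adjusted p = 0.00168). The Krüppel-like factors KLF4 and KLF2 fell by 0.64 and 0.29 (limma adjusted p = 0.00063 and 0.00601). Of 30 genes described as targets of AP-1 or EGR1, 4 rose, 2 fell and 24 did not pass (median -0.01). The cytokine gene TNF rose by 0.55 (limma adjusted p = 0.000356), the death receptor gene FAS by 0.79 and the protease gene MMP9 by 0.44. The vasoconstrictor peptide gene EDN1 fell by 0.58 (limma adjusted p = 0.018). FAS and KLF2 were dim, with mean signals of 4.86 and 4.91 log2, below the 90th percentile of the reporter controls (4.99). MMP9, at 5.15 log2, lay just above it.

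Markers of other heart cells were read beside these counts. None of 8 endothelial, 6 fibroblast, 5 smooth muscle and pericyte, 4 macrophage or 3 red blood cell markers passed by limma, with 0, 2, 0, 2 and 1 at an unadjusted p under 0.05. Of 7 lymphocyte markers 2 rose, CD3G by 0.56 and CD79B by 0.26, where 5.11% of all genes passed as higher. The other 5 did not pass, and 4 of the 7 had an unadjusted p under 0.05. CD4 was among the 4 with a difference of -0.37, the other direction (limma adjusted p = 0.0618). CD79B and CD4 were dim, with mean signals of 4.00 and 4.50 log2, below the 90th percentile of the reporter controls (4.99). CD3G lay at 5.38 log2. The mean level of the lymphocyte markers ran from 5.46 to 6.03 log2 in exercised and from 4.95 to 5.75 log2 in sedentary animals. Their part in the members' values was not tested.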

How the data were processed

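The values are log2 signals per probe set, deposited by the authors in 1 table of 24123 probe sets and 16 animals. Per the labels' protocols, biotin-labelled RNA was hybridised to 1-colour Affymetrix arrays. Summarisation and normalization are not given in the sources used here, and scale was read from the values (2.87 to 14.86). The number of arrays limits the precision.

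AFFX and RPTR controls (188) were left out. Symbols came from the platform annotation and matched RefSeq (Sscrofa11.1) by Entrez identifier for 7 of 7 member genes. A mean for each combination of training and sex was fitted to 16 arrays with limma 3.58.1 in R 4.3.3 (12 residual and 3.50 prior degrees of freedom), with Benjamini-Hochberg adjustment. The fit was tested on simulated data. Exact and permutation tests used Python 3.11.15 and figures matplotlib 3.10.9. Replicates are separate animals.

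Named genes are all members, up to 4 called genes of each list with the smallest p, and the 5 symbols most correlated with FOS and with JUN. CD3G and CD79B come from that rule. EGR4 and WT1 are named as the 2 measured EGR relatives, and CD4 was chosen after its values were seen. Members and lists were chosen with earlier results of these data known. The split by poly-A controls (42 probe sets) lies at the widest gap in their mean. Alternatives are given in the closing section.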

Additional observations from a re-analysis of the deposited data

Results flagged for a closer look

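In 22 groups of 8 animals (11 member probe sets in exercised and in sedentary animals), 4 had a highest or lowest animal far from the rest by Dixon's criterion at 95%. Chance marks about 1 group in 20. On the EGR1 probe sets Ssc.16460.1.S1_at and Ssc.19629.2.S1_s_at, exercised 7 stood at 6.74 and 9.44, with the next exercised animal at 5.01 and 7.46. For JUN, sedentary 4 stood at 9.48, below the next sedentary animal at 10.55. On the FOSL1 probe set Ssc.3391.2.S1_at, exercised 8 stood at 6.07, above the next exercised animal at 5.60. Causes were not tested.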

How the results depend on the processing

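FOS and JUN kept their direction and did not pass in any alternative fit run. The plain difference of means for FOS, however, was -1.59 in the high and 0.85 in the low poly-A set, the opposite direction. The low set held only 2 exercised and 3 sedentary animals, exercised 7 among them, and no fit was made to it alone. In the fits FOS ran from -1.61 (high poly-A arrays) to -0.73 (array weights), and from -1.33 to -0.63 with 1 animal left out; JUN ran from -0.39 to -0.25 and from -0.52 to -0.26. The number of members passing was 1, but 0 above the 40th percentile of level (where FOSL1 was not tested), 4 on high poly-A arrays, 3 without both exercised 7 and sedentary 1 (chosen after seeing the data), and 0 to 4 with 1 animal left out. The number of all probe sets passing was 3197 of 23935 (13.4%), and 631 of 14361 (4.39%) above the 40th percentile. There the share that passed was lower too, not only the number tested. FOSL1 on Ssc.3391.2.S1_at, at 0.0052, changed sign to -0.049 on high poly-A arrays and -0.0099 without exercised 7 and sedentary 1, and ran from -0.061 to 0.061 with 1 animal left out. The causes were not tested. Replicate numbers were not used to pair the animals in the main fit. The correlation of same-numbered deviations ran from -0.01 to 0.44. It was at most 0.1 for numbers 5 and 6 and at least 0.18 for the other numbers. Low poly-A arrays carry numbers 7 and 8 in both groups and 6 in the sedentary group. Whether the numbers mark a shared structure was not tested. With the replicate block, FOS was -0.95 (limma adjusted p = 0.381), 1 member and 3528 probe sets passed. Signals near the reporter controls limit FOSL1 and the dim EGR1 probe set, and also listed genes such as FAS, KLF2 and CD79B.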

Other observations

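ATF3 and IER3 were positively correlated within each training group, a pattern picked after the values were seen that did not pass after adjustment in either group. Within exercised animals r was 0.94 (rho = 0.69) and within sedentary animals 0.83 (rho = 0.71; n = 8 each, exact permutation p = 0.0024 and 0.014 for r, adjusted 0.0505 and 0.147 over 42 values, and p = 0.0694 and 0.0576 for rho, adjusted 0.486 for both). Without the 2 animals of each group farthest from its ATF3 median (exercised 2 and 7, sedentary 1 and 4), r was 0.62 and 0.58. The size of r thus depends in part on them, and leaving them out also narrows the ATF3 range. Pooled over 16 animals r was 0.38 (rho = 0.26; permutation p = 0.15 and 0.324, adjusted 0.35 and 0.674 over 21 pairs). The ATF3 signal minus the IER3 signal in the same animal ran from -2.44 to -0.37 in exercised animals, with a median of -1.83, and from -0.99 to 2.18 in sedentary animals, with a median of 0.24. The groups overlapped: exercised 7 at -0.37 lay inside the sedentary range, above sedentary 4 and sedentary 7 (-0.79 and -0.99). Exercised 2 was next, at -1.03, just below that range. FOSL2 and EGR1 had r = 0.55 and rho = 0.65 (permutation p = 0.0262 and 0.00743), which did not pass after adjustment over 21 pairs (0.11 and 0.078). Their r was 0.72 without exercised 5 and exercised 7, the animals farthest from the EGR1 median, and 0.43 within exercised and 0.66 within sedentary animals.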
